A study of Mus musculus with 10 samples.

Results

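Thermogenic fat genes mark brown adipocytes and the beige adipocytes that appear in white fat depots, cells that burn fuel to make heat. The genes described here are 10 members taken by gene symbol: Ucp1, Cidea, Dio2, Cox7a1, Cox8b, Ppargc1a, Prdm16, Elovl3, Kcnk3 and Slc27a2. All 10 were found among the 30319 gene symbols measured, and all 10 were among the 16932 genes tested, those that reached 1 TPM in at least 2 libraries. TPM is the share of a gene in all transcripts of a library after scaling for transcript length, so levels of different genes can be compared on it.

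Total RNA of the inguinal fat pad, labelled as total subcutaneous mammary adipose, was depleted of ribosomal RNA and sequenced. Female FVB mice were either wild type or FAP-/-, a knockout of fibroblast activation protein, which is a protease on the surface of activated fibroblasts. From week 12 to week 30 of age they ate ingredient-matched diets with 10% (LFD) or 60% (HFD) of calories from fat. Wild-type mice gave 2 libraries on each diet (WT_LFD and WT_HFD) and null mice gave 3 on each (Null_LFD and Null_HFD), which the series calls biological replicates. The labels do not say which part of Fap is disrupted or whether a pad came from 1 mouse.

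Heat production in these cells starts with noradrenaline, which acts on beta-adrenergic receptors and raises cyclic AMP. Cyclic AMP raises the coactivator PGC-1alpha (Ppargc1a) and the deiodinase that makes active thyroid hormone (Dio2), and both act on Ucp1. The uncoupling protein UCP1 lets protons back across the inner mitochondrial membrane, so that respiration releases heat in place of ATP. Inguinal fat is a white depot known for its capacity to form beige adipocytes.

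The promoters of Ucp1, Dio2 and Ppargc1a are shown because these 3 genes form that cyclic AMP route and because their transcripts varied widely between the libraries. Each sequence is the 250 bases before the transcription start given by RefSeq (GRCm38.p6, the C57BL/6J reference and not the FVB strain), 5′ to 3′ on the strand of the gene. Capitals mark TGACG, the half-site of the cyclic AMP response element, on either strand.
Ucp1 (chr8:83290098-83290347, plus strand): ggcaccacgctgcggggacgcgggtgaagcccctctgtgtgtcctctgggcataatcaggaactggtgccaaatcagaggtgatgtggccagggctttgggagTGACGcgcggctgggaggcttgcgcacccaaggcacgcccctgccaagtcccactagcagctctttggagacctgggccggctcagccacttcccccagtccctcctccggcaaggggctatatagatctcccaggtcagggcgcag
Dio2 (chr12:90739039-90739288, minus strand): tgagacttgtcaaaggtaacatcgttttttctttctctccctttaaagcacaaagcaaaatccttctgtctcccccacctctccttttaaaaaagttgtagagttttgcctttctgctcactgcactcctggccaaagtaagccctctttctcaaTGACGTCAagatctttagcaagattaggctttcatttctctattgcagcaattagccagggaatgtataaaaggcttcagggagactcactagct
Ppargc1a (chr5:51567726-51567975, minus strand): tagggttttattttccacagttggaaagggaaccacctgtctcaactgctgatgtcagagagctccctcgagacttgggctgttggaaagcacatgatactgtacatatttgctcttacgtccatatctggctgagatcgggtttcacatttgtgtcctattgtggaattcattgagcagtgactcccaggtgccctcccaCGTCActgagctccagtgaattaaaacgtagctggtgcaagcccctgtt

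Promoters of 7 of the 10 members were in the RefSeq table used. The half-site TGACG, on either strand, was present in 3 of these 7 promoters, against 17.8% of all 32851 promoters of the same length. It began 147 bases before the start in Ucp1, at 95 and 92 bases on the opposite strands in Dio2, and at 49 bases in Ppargc1a. The whole palindrome TGACGTCA, which contains the half-site on both strands, was in the promoter of Dio2 and in 1.55% of all promoters. The nuclear receptor half-site AGGTCA, on either strand, was in the promoters of Ucp1 and Slc27a2, against 14% of all. None of the 7 member promoters held TCAAGGTCA, a site of oestrogen-related receptors that contains AGGTCA, against 0.387% of all. Each match is a string of letters in a short window, and no binding was measured. The RefSeq start of Dio2 lies upstream of the end of the gene in GENCODE M21 (12, 90724552 to 90738438, minus strand), so the start used by these transcripts is uncertain.

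Fap, the targeted gene, measured 37.7 to 68.8 TPM in the 4 wild-type libraries and 18.3 to 38.4 TPM in the 6 null libraries. It was lower in null pads by a log2 difference of -0.94 (SE 0.21), which did not pass over all genes (limma, adjusted p = 0.686). The limma tests were two-sided, and they were run on log2(TPM + 1) throughout, with p-values adjusted by the Benjamini-Hochberg method over all 16932 genes, and 0.05 was the highest adjusted p at which a gene was called. The libraries WT_HFD 2 and Null_HFD 3, 2 of the 5 high-fat ones, stood apart in tissue content. Their 17 lymph node markers summed to 1304 and 3538 TPM, against 25.3 to 56.3 TPM in the other 8 libraries. The 15 skeletal muscle markers summed to 372 and 165 TPM in these libraries and to 2794 to 13073 TPM in the other 8. None of the 20 mature adipocyte markers was at 0 in any library, and their sum ran from 14568 TPM (Null_HFD 3) to 42275 TPM (WT_LFD 2). In bulk tissue, fewer cells of a type cannot be told apart from less RNA per cell.

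Ucp1, the uncoupling protein itself, spanned the widest range of the 10 members. It measured 153 and 859.8 TPM in WT_LFD, 219, 56.1 and 125 TPM in Null_LFD, 266 and 3.69 TPM in WT_HFD, and 567, 49.2 and 1.35 TPM in Null_HFD. The highest library thus held 636 times the level of the lowest, and on the log2 scale Ucp1 varied more between libraries than 99.9% of the genes tested. Libraries of 1 group lay far apart, with both a high and a low one in each high-fat group, and all 4 groups overlapped. The group means were 506 ± 499.9 TPM (SD, n = 2) in WT_LFD, 206 ± 314 TPM (SD, n = 3) in Null_HFD, 135 ± 185 TPM (SD, n = 2) in WT_HFD and 133 ± 81.9 TPM (SD, n = 3) in Null_LFD. No neighbours in that order differed by more than their SD.

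Cidea encodes a lipid droplet protein abundant in brown fat. Its levels were 123 and 198 TPM in WT_LFD, 259, 61.7 and 110.0 TPM in Null_LFD, 94.4 and 18.8 TPM in WT_HFD, and 135, 42.6 and 11.1 TPM in Null_HFD. The low-fat libraries lay mostly above the high-fat ones, but Null_HFD 1 lay above 3 of the 5 low-fat libraries (WT_LFD 1, Null_LFD 2 and Null_LFD 3), and WT_HFD 1 lay above Null_LFD 2. Elovl3, an elongase that makes very long chain fatty acids in brown fat when it is activated, showed a similar order. It measured 17.7 and 29.3 TPM in WT_LFD, 24.6, 3.91 and 12.2 TPM in Null_LFD, 5.23 and 0.653 TPM in WT_HFD, and 22.9, 2.88 and 0.505 TPM in Null_HFD. Null_HFD 1 was the one high-fat library at the level of the upper low-fat libraries for this gene.

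Ppargc1a, the coactivator that drives mitochondrial biogenesis, measured 13.7 and 44.7 TPM in WT_LFD and 8.61, 6.37 and 5.29 TPM in Null_LFD. On the high-fat diet it measured 15.8 and 4.40 TPM in WT_HFD and 21.8, 10.2 and 1.42 TPM in Null_HFD. The 3 null libraries on the low-fat diet all lay below both wild-type ones, while the high-fat groups overlapped. Dio2, which converts thyroxine to active thyroid hormone inside the cell, was low in most libraries, with a median of 1.85 TPM. Its values were 1.39 and 19.7 TPM in WT_LFD, 1.49, 2.22 and 2.45 TPM in Null_LFD, 3.53 and 0.731 TPM in WT_HFD, and 10.8, 0.567 and 0.543 TPM in Null_HFD. Only WT_LFD 2 and Null_HFD 1 exceeded 4 TPM, and they were also the libraries with the most Ucp1 and Ppargc1a.

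Prdm16, a transcription factor that sets and keeps the brown and beige fate, varied least among the members. It measured 6.98 and 7.12 TPM in WT_LFD, 4.85, 8.12 and 5.15 TPM in Null_LFD, 7.62 and 9.65 TPM in WT_HFD, and 10.3, 7.14 and 3.18 TPM in Null_HFD. Its spread between libraries (SD 0.43 on the log2 scale) was exceeded by that of many other genes, as 55.2% of those tested varied less. WT_HFD 2, where Ucp1 was at 3.69 TPM, had the level of Prdm16 next to the highest.

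Cox7a1 and Cox8b encode subunits of cytochrome c oxidase, the last enzyme of the respiratory chain, in the isoforms used by heart, skeletal muscle and brown fat. Cox7a1 measured 73.2 and 54.6 TPM in WT_LFD, 124, 43.8 and 61.1 TPM in Null_LFD, 62.6 and 12.8 TPM in WT_HFD, and 130.0, 25.8 and 12.0 TPM in Null_HFD. Cox8b was the most abundant member by its mean over the libraries, 341 TPM. Its values were 353 and 574 TPM in WT_LFD, 479.6, 260.0 and 257 TPM in Null_LFD, 429 and 192 TPM in WT_HFD, and 504, 285 and 79.0 TPM in Null_HFD. For both subunits WT_HFD 2 and Null_HFD 3 were the lowest libraries.

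Set against their widely expressed counterparts, these isoforms remained the minor form in every library. Cox7a1 made up 5.17% (Null_HFD 3) to 28.9% (Null_HFD 1) of the summed TPM of Cox7a1 and Cox7a2, the isoform of most tissues. Cox8b made up 11.9% (Null_HFD 3) to 38.7% (WT_LFD 2) of the sum of Cox8b and Cox8a. The 2 shares did not order the libraries alike: WT_LFD 2 had the highest share of Cox8b but a Cox7a1 share of 14.0%, below Null_LFD 1 (24.0%) and Null_HFD 1. Skeletal muscle also uses both isoforms, and the muscle markers summed to 13073 TPM in Null_LFD 1, the highest of all libraries, and to 2794 TPM in WT_LFD 2. The part of muscle RNA in these shares was not tested.

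**Figure D1:**
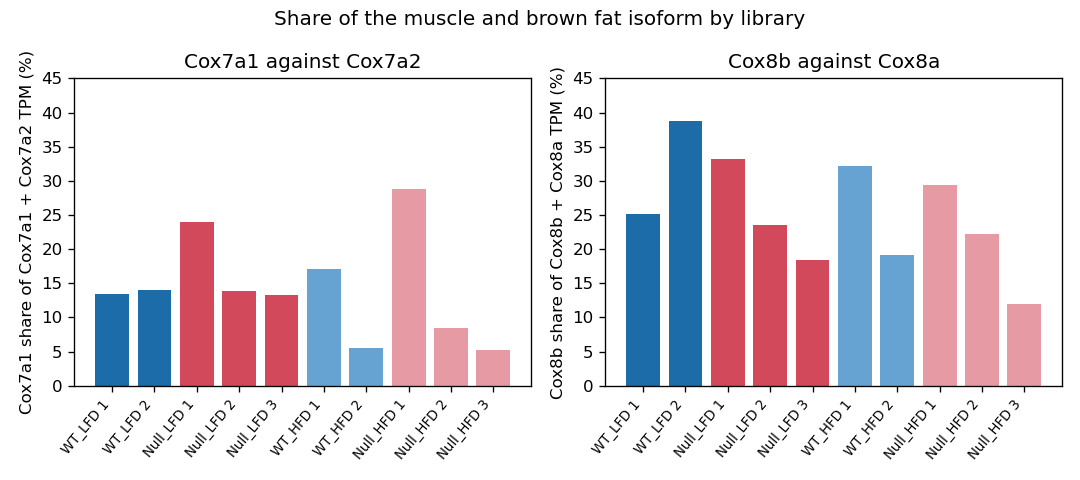
Bars give the share (percent) of Cox7a1 in the summed TPM of Cox7a1 and Cox7a2 (left) and of Cox8b in that of Cox8b and Cox8a (right) in each of the 10 libraries, coloured by group. The lowest share in both panels is that of Null_HFD 3, at 5.17% and 11.9%.

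Kcnk3 encodes the potassium channel TASK1, which sets the membrane potential of brown adipocytes. It measured 22.5 and 18.7 TPM in WT_LFD, 15.9, 8.55 and 11.4 TPM in Null_LFD, 14.4 and 1.70 TPM in WT_HFD, and 16.2, 10.6 and 4.38 TPM in Null_HFD. Both WT_LFD libraries lay above all the others. Slc27a2, a fatty acid transport protein with very long chain acyl-CoA synthetase activity, measured 2.91 and 32.8 TPM in WT_LFD, 19.2, 1.59 and 4.40 TPM in Null_LFD, 11.8 and 0.941 TPM in WT_HFD, and 23.6, 2.10 and 0.614 TPM in Null_HFD. Each of the 4 groups held a library above 10 TPM beside at least one below 5 TPM. Exons of 6 members (Cidea, Dio2, Prdm16, Elovl3, Kcnk3 and Slc27a2) overlap a gene on the opposite strand in GENCODE M21. The library kit keeps strand, but whether the quantification used it is not given in the sources used here, so reads of such partners could add to these levels.

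**Figure D2:**
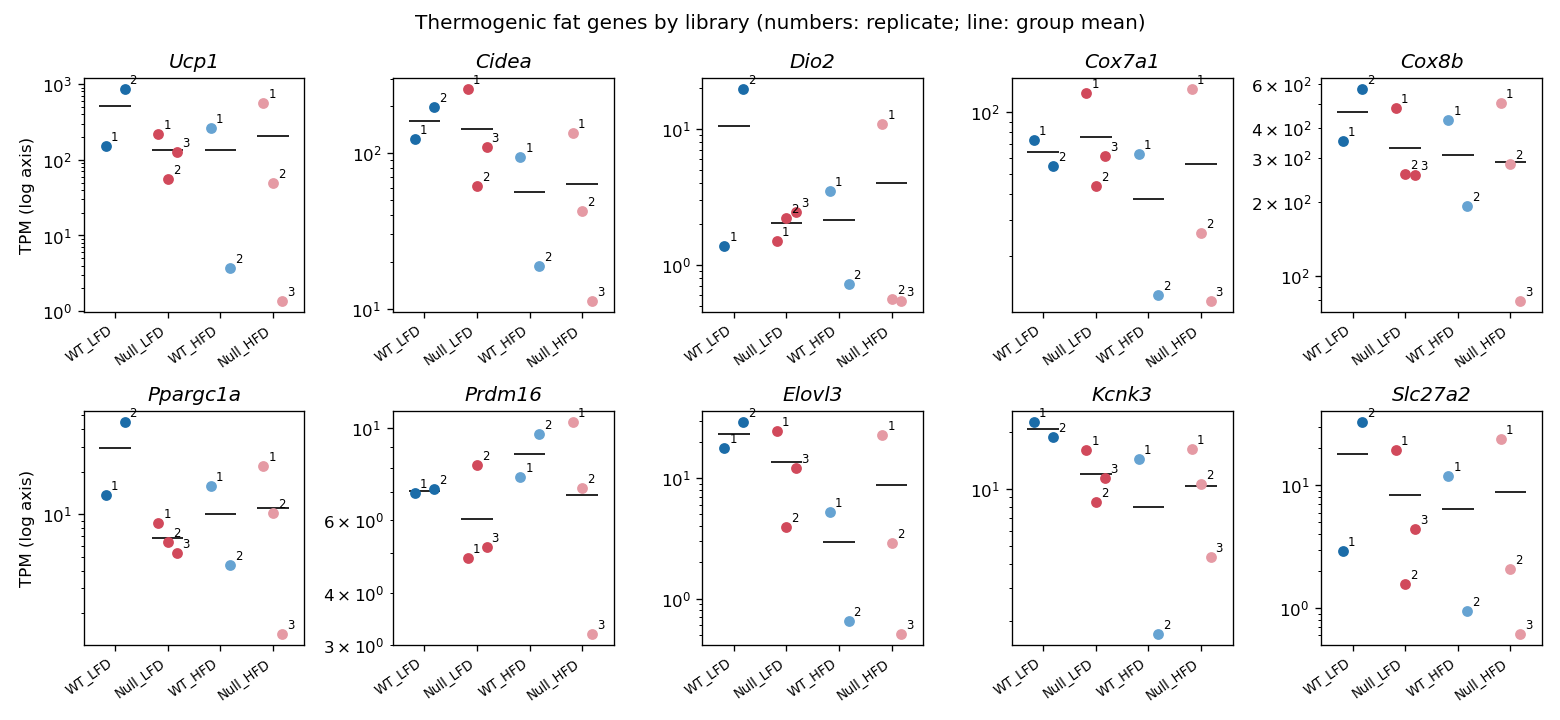
Each panel shows 1 gene, with its TPM on a log axis against the 4 groups; points are libraries numbered by replicate and lines are group means. Libraries of at least 1 group are spread over much of each panel, with WT_HFD 2 and Null_HFD 3 at the bottom for Ucp1 (3.69 and 1.35 TPM). Other groups lie close together, such as WT_LFD for Prdm16 (6.98 and 7.12 TPM).

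The members ranked the libraries in much the same way. WT_LFD 2 was the highest library for 6 of the 10 members, and Null_HFD 1 was among the highest 3 for all 10. Null_HFD 3 was the lowest for 9, all but Kcnk3, where WT_HFD 2 was lowest. For 8 members, all but Dio2 and Prdm16, WT_HFD 2 and Null_HFD 3 both lay below each of the other 8 libraries. The share of all tested genes with this pattern was not counted, so it is not read as particular to the members. Summed over the 10 genes, the level ran from 114 TPM in Null_HFD 3 and 245 TPM in WT_HFD 2 to 1442 TPM in Null_HFD 1 and 1838 TPM in WT_LFD 2. The 13 mitochondrially encoded protein genes took their lowest share of TPM in Null_HFD 3 (3.36%) and their highest in WT_LFD 2 (13.8%), the same libraries.

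Most of this variance lay within the groups. Differences between libraries of 1 group made up a median of 77.2% of the members' variance on the log2 scale, against 65.7% over all genes tested. The share was lowest for Elovl3 (55.5%) and highest for Slc27a2 (91.2%). Counted per 1000 TPM of Adipoq, the adiponectin transcript of all mature adipocytes, Ucp1 still ran from 1.80 (Null_HFD 3) and 2.64 (WT_HFD 2) to 182 (Null_HFD 1) and 268 (WT_LFD 2). Cox8b varied far less on that measure, from 105 (Null_HFD 3) to 199 (WT_LFD 1).

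**Figure D3:**
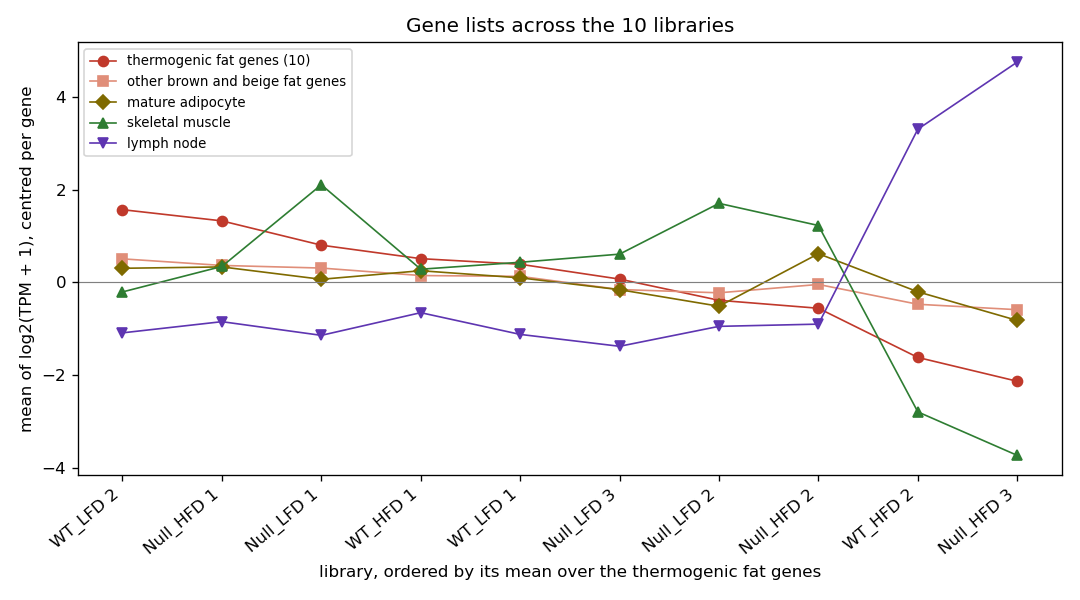
The y axis is the mean of log2(TPM + 1) over the genes of a list after centring each gene on its mean, and the x axis gives the libraries ordered by the 10 thermogenic fat genes. The thermogenic line falls from 1.57 in WT_LFD 2 to -2.13 in Null_HFD 3, where the lymph node line reaches 4.76 and the muscle line -3.73.

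Genotype on the low-fat diet compared Null_LFD with WT_LFD. Of the members, 9 measured lower and 1 (Cox7a1) higher in null pads on the log2(TPM + 1) scale, with a median difference of -0.79 beside 0.15 over all genes tested. No member passed (limma, lowest adjusted p 0.949), in a comparison where 0% of all genes were called. By unadjusted p under 0.05, 0 members and 750 of all genes were reached. The SE pools the spread of all 4 groups, so the high-fat libraries enter it too. Alternatives that kept more than 1 library in every group gave at most 1 member at an unadjusted p under 0.05. The count was 1 with sample weights, without Null_HFD 1 and without Null_HFD 3, and no member was called. Runs that left 1 library in a wild-type group, such as that without WT_HFD 2 and Null_HFD 3, are not counted here. Ppargc1a had the largest difference, -1.76 (SE 0.89, adjusted p = 0.949), and Ucp1 followed with -1.64 (SE 2.21, adjusted p = 0.949). The other differences were -1.22 (SE 1.06) for Dio2, -1.01 (SE 1.11) for Elovl3, -0.81 (SE 1.41) for Slc27a2, -0.77 (SE 0.70) for Kcnk3, -0.50 (SE 0.70) for Cox8b, -0.37 (SE 1.01) for Cidea, -0.22 (SE 0.41) for Prdm16 and 0.13 (SE 0.94) for Cox7a1. With median-of-ratios scaling, Cox7a1 was at -0.02.

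In 2 members, Ppargc1a and Kcnk3, the groups did not overlap and the null libraries lay lower, as they did in 6.3% of all genes tested. In no member did all null libraries lie higher, against 19.1% of all genes. Much of the low-fat difference rested on WT_LFD 2: without it the median over the members was -0.18, Ucp1 was at -0.40, Ppargc1a at -0.95, Dio2 at 0.34 and Slc27a2 at 0.75. Without Null_LFD 2 the median was -0.40 and Cidea was at 0.11. Leaving out WT_LFD 1 moved the median the other way, to -1.11, and leaving out Null_LFD 1 moved it to -1.03, with all 10 members lower in the latter. The mature adipocyte markers summed to 29314 to 42275 TPM in WT_LFD and 20193 to 33180 TPM in Null_LFD. With the mean of the adipocyte list subtracted in each library, which moved the median of all genes from 0.15 to 0.55, the members' median was -0.39, Ucp1 was at -1.24 and Ppargc1a at -1.36, while Cidea and Prdm16 turned to 0.04 and 0.18.

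Genotype on the high-fat diet compared Null_HFD with WT_HFD, each of which holds 1 of the lymph node-rich libraries. Here 5 members measured higher and 5 lower in null pads, with a median difference of 0.06 and a range from -0.40 to 0.69. No member passed (limma, lowest adjusted p 1), while 0.0118% of all genes (2 of 16932) were called, and 0 members and 647 of all genes had an unadjusted p under 0.05. For Ucp1 the difference was 0.20 (SE 2.21), and it was -2.71 without WT_HFD 2, 3.11 without WT_HFD 1 and -0.66 without both lymph node-rich libraries. In the latter setting 8 members measured lower and 2 higher, with a median of -0.11. No member separated the 2 groups without overlap, while 7.73% of all genes did so with null higher and 7.78% with null lower. The members' median was 1.21 without WT_HFD 1, 0.82 without Null_HFD 3, -0.88 without WT_HFD 2, -0.86 without Null_HFD 1 and 0.19 without Null_HFD 2. With sample weights 9 members measured higher and 1 lower, with a median of 0.52 and Ucp1 at 1.58.

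Averaged over both diets, 9 members measured lower and 1 higher in null pads, with a median of -0.36 and a range from -0.96 to 0.20 beside a median of 0.08 over all genes. None passed (limma, lowest adjusted p 0.98), 0% of all genes were called, and 0 members against 709 of all genes had an unadjusted p under 0.05. Without Null_HFD 1, 1 member had such a p, and none was called. The median turned to 0.30 without WT_HFD 1 and to 0.09 without Null_HFD 3, and it was -0.07 without WT_LFD 2 and -0.21 without Null_LFD 2. It was -0.75 without WT_HFD 2, -0.71 without Null_HFD 1 and -0.12 with sample weights. Without both lymph node-rich libraries it was -0.39, with 9 members lower and 1 higher. Leaving out WT_LFD 1 gave -0.49, and leaving out Null_LFD 1 gave -0.48 with all 10 lower.

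Diet was compared first within wild type, WT_HFD against WT_LFD. On the high-fat diet 9 members measured lower and Prdm16 higher, with a median of -1.39 beside 0.20 over all genes. No member passed (limma, lowest adjusted p 0.761) where 0% of all genes were called, and 2 members and 950 of all genes had an unadjusted p under 0.05. Those 2 members were Elovl3 at -2.89 (SE 1.22, adjusted p = 0.761) and Kcnk3 at -1.74 (SE 0.77, adjusted p = 0.761). Ucp1 differed by -3.36 (SE 2.42) and Cidea by -1.85 (SE 1.11). The remaining differences were -1.45 (SE 0.98) for Ppargc1a, -1.33 (SE 1.16) for Dio2, -1.20 (SE 1.55) for Slc27a2, -1.12 (SE 1.03) for Cox7a1, -0.65 (SE 0.77) for Cox8b and 0.25 (SE 0.45) for Prdm16.

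Groups did not overlap for Cidea, Elovl3 and Kcnk3, which were lower on the high-fat diet (3 of 10 members, against 11.5% of all genes), and for Prdm16, which was higher (33.7% of all genes). WT_HFD 2 carried most of these values. Without it the median over the members was -0.47, Ucp1 was at -0.45, Kcnk3 at -0.48 and Elovl3 at -1.93. In the opposite case, without WT_HFD 1, the median was -2.41, Ucp1 was at -6.28 and 4 members had an unadjusted p under 0.05, with none called. Without WT_LFD 1 the median was -2.23. The values also leaned on WT_LFD 2: without it the median was -0.98, with 7 members lower and 3 higher. Dio2 was then at 0.23 and Slc27a2 at 0.35.

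Within the null genotype, 7 members measured lower and 3 higher on the high-fat diet, with a median of -0.45 and a range from -1.55 to 0.16. None passed (limma, lowest adjusted p 0.797), in a comparison where 0.00591% of all genes (1 of 16932) were called. An unadjusted p under 0.05 was reached by 0 members and 1129 of all genes. Ucp1 differed by -1.52 (SE 1.97), and without Null_HFD 3 by 0.54. Without that library 7 members measured higher and 3 lower, with a median of 0.33. Without Null_HFD 1 all 10 measured lower, with a median of -1.31, 3 of them at an unadjusted p under 0.05 and none called. The median was -0.16 without Null_LFD 1 and -0.85 without Null_LFD 2, and with sample weights it was 0.03, with 5 members higher and 5 lower. No member separated the null groups without overlap, while 6.6% of all genes did so with the high-fat diet higher and 4.49% with it lower.

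Averaged over both genotypes, high-fat pads had lower values of 9 members and a higher value of Prdm16, with a median of -0.91 beside 0.11 over all genes. No member passed (limma, lowest adjusted p 0.513) and 0% of all genes were called, while 2 members and 1641 of all genes had an unadjusted p under 0.05. These were Elovl3 at -2.04 (SE 0.79, adjusted p = 0.513) and Cidea at -1.70 (SE 0.71, adjusted p = 0.513). Without WT_HFD 2 and Null_HFD 3 the members' median was -0.01, with 5 higher and 5 lower, Elovl3 was at -1.12 and Cidea at -0.69. Leaving out WT_HFD 2 alone gave a median of -0.35 and leaving out Null_HFD 3 alone -0.54. In the other direction, the median was -1.54 without WT_HFD 1 and -1.29 without Null_HFD 1. The latter run had 5 members at an unadjusted p under 0.05. With all libraries kept there were 4 with the replicate number as a block and 3 with the adipocyte list subtracted. There was 1 with sample weights and 0 without Null_HFD 2, and no member was called in these runs. The lymph node and muscle markers that moved with WT_HFD 2 and Null_HFD 3 are given above, and their part in the diet difference was not tested.

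The interaction asks whether the genotype difference changed with diet. It was positive for 9 members and negative for Prdm16, with a median of 1.07 beside -0.13 over all genes, and reached 1.84 (SE 3.12) for Ucp1. No member passed (limma, lowest adjusted p 1.00) where 0% of all genes were called, and 0 members against 701 of all genes had an unadjusted p under 0.05. Without Null_HFD 3, 1 member had such a p, and none was called. The median was -0.22 without WT_HFD 2, -0.20 without Null_HFD 1, 0.16 without WT_LFD 2, 0.60 without Null_LFD 2, 1.68 without WT_LFD 1, 1.73 without Null_HFD 3 and 2.10 without WT_HFD 1. It was 0.51 without both lymph node-rich libraries. The comparisons share groups, so their values are not independent of each other.

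**Figure D4:**
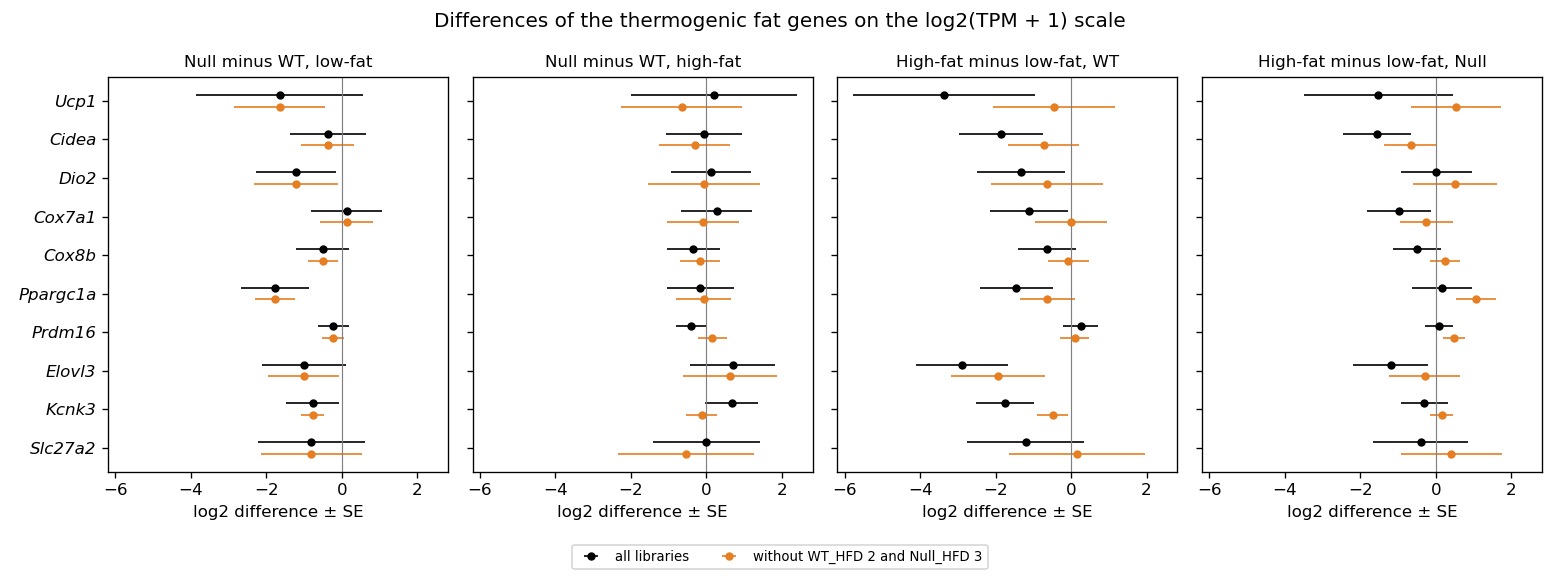
Points are log2 differences on the log2(TPM + 1) scale with SE bars for the 10 genes in 4 comparisons, with all 10 libraries (black) and without WT_HFD 2 and Null_HFD 3 (orange). Every gene in black failed the test over all genes, and the orange points of the 2 diet panels lie closer to 0 for most genes, such as Ucp1 in wild type at -0.45 against -3.36.

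Beyond the members, 74 tested genes of 4 related lists were examined, and none was called in any of the 7 comparisons. Among 27 tested other brown and beige fat genes, 20 measured lower and 7 higher in null pads on the low-fat diet (median -0.40), and the same numbers applied to the diet averaged over genotypes (median -0.36). Of 18 tested transcription factors and coregulators of brown and beige fat, 9 measured higher and 9 lower in null pads of that diet (median -0.07). For the 12 genes listed under heat production without Ucp1, 10 measured higher and 2 lower in that comparison (median 0.42). Most of the list belongs to creatine or calcium cycling, and it also holds the ADP/ATP carrier gene Slc25a4 (0.47) and Gpd2 of the glycerol phosphate shuttle (-0.47), which with Gatm (-0.28) of creatine synthesis was one of the 2 lower. That list includes Atp2a1, the calcium pump of fast muscle, at 417.8 TPM in Null_LFD 1 and 5.30 TPM in Null_HFD 3. It also includes Ckmt2, the creatine kinase of muscle mitochondria, at 57.1 TPM in Null_LFD 1 and 0.305 TPM in Null_HFD 3. Skeletal muscle markers summed to 4701 to 13073 TPM in Null_LFD and 2794 to 4050 TPM in WT_LFD, and their part in this list was not tested.

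Genes used to tell brown from beige fat differed widely in level. Zic1, a marker of classical brown adipocytes, did not exceed 0.623 TPM in any library and was not tested. Lhx8, another gene of classical brown fat, measured 0.788 (Null_HFD 3) to 7.30 TPM (Null_HFD 1). Ebf2, a transcription factor of brown and beige precursors, lay at 15.4 to 22.3 TPM in 9 libraries and at 5.30 TPM in Null_HFD 3. Of the beige markers, Cited1, a transcriptional coregulator, measured 10.5 TPM (Null_HFD 3) to 90.1 TPM (Null_LFD 3). Markers of mammary luminal epithelium summed to 384 TPM in Null_HFD 3 and 1796 TPM in Null_LFD 3. Their highest sum, 3390 TPM, was in Null_LFD 2, where Cited1 measured 17.7 TPM. The part of this epithelium in Cited1 was not tested. Tmem26 and Tbx1 stayed at or below 3.96 and 1.88 TPM. Tnfrsf9, which is also expressed by activated T cells, measured 18.3 TPM in Null_HFD 3, 3.79 TPM in WT_HFD 2 and at most 0.798 TPM in the other 8 libraries, and Tmem26 was highest in the same 2 libraries. These are the libraries with the highest lymph node markers, whose part in both genes was not tested.

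Among the 4 related lists, the smallest p-values on the low-fat diet between genotypes belonged to 2 potassium channel relatives of Kcnk3 and to a relative of Ucp1. Kcnk5 differed by 1.17 (SE 0.38), Kcnk1 by 1.25 (SE 0.42) and Ucp2, a mitochondrial carrier with wide expression, by 0.64 (SE 0.25), each with a limma adjusted p of 0.949. Luminal epithelial markers of the mammary gland summed to 1796 to 3390 TPM in Null_LFD and 710 to 1476 TPM in WT_LFD, and their part in the values of the 2 channels was not tested. In the interaction, Kcnk1 (-2.17, SE 0.60), the creatine transporter gene Slc6a8 (-1.85, SE 0.57) and the histone methyltransferase gene Ehmt1 (-0.70, SE 0.23) had the smallest p (limma, adjusted p = 1.00 for each).

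Between diets, the smallest p-values were those of Elovl6, Gpd2 and Elovl5. Elovl6, which elongates palmitate during fatty acid synthesis, measured 741 and 54.8 TPM in WT_LFD, 166, 131 and 252 TPM in Null_LFD, 48.8 and 10.0 TPM in WT_HFD, and 31.6, 15.5 and 11.0 TPM in Null_HFD. All 5 low-fat libraries lay above all 5 high-fat ones, as in 0.413% of all genes, whereas its relative Elovl3 overlapped between the diets. The difference of Elovl6 was -3.18 (SE 0.71, limma adjusted p = 0.513) and -2.48 without both lymph node-rich libraries. Gpd2, the mitochondrial glycerol phosphate dehydrogenase, differed by -1.05 (SE 0.34) and Elovl5, an elongase of polyunsaturated fatty acids, by -0.46 (SE 0.17).

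The genes outside the 10 members whose pattern lay closest to Ucp1 were found as those with the smallest root mean square difference in log2(TPM + 1), centred per gene, over the 10 libraries. The closest was Fabp3, a fatty acid binding protein of heart, muscle and brown fat, at 0.98. It measured 241 TPM in WT_LFD 2, 179 TPM in Null_HFD 1, 8.74 TPM in WT_HFD 2 and 1.53 TPM in Null_HFD 3. Next among non-members came the processed pseudogene Rps13-ps2 (1.23), the fast muscle light chain gene Mylpf (1.46), Cpt1b (1.51), which brings fatty acids into mitochondria, the phosphatase gene Phospho1 (1.58) and the processed pseudogene Gm14219 (1.65). Pseudogene levels are uncertain, since reads of the parent gene can be assigned to its copies. Among the members themselves, Elovl3 (1.38), Cidea (1.44) and Slc27a2 (1.48) lay nearest to Ucp1 and Prdm16 (2.52) farthest, so that Elovl3 and Cidea lay nearer than Mylpf, and Slc27a2 nearer than Cpt1b.

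Closest to the mean of the 10 members among other genes was Phospho1, with a difference of 0.20. It measured 19.2 TPM in WT_LFD 2, 15.6 TPM in Null_HFD 1, 1.69 TPM in WT_HFD 2 and 0.860 TPM in Null_HFD 3. Cpt1b (0.44), the pantothenate kinase gene Pank1 (0.48), the beta-3 adrenergic receptor gene Adrb3 (0.51), Adtrp (0.52) and the pseudogene Gm28438 (0.57) followed among non-members, with members such as Cidea (0.45) and Cox8b (0.46) lying between them. Each member is itself part of that mean and is drawn towards it, while a non-member is not, so their distances are not strictly comparable. Adrb3, the receptor through which noradrenaline activates fat cells, ran from 17.3 TPM in Null_HFD 3 to 185 TPM in Null_HFD 1. Prdm16 lay at 1.07 from the mean of the members, while the other members apart from Ucp1 lay at 0.45 to 0.74.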

How the data were processed

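The deposited file holds log2(TPM + 1) values made by the authors, a unit inferred from the values, since the lowest value is 0 and each library's TPM, taken back from the log, totals between 946103 and 954463. The tools kallisto and limma and the build GRCm38 are named in the submitters' processing notes. Which step used them, and in which version, is not given in the sources used here. TPM keeps no read numbers, so the depth is unknown. One line without a symbol (0.00544% to 0.0108% of TPM) was left out.

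Libraries were matched to groups by the labels. Using limma (3.58.1, R 4.3.3), 4 group means were fitted on all 10 libraries, with a mean-variance trend and 6 residual degrees of freedom, and 7 comparisons were tested. The tests measure the spread between these libraries. Differences on the log2(TPM + 1) scale understate changes of low genes. No 2 libraries shared identical values in more than 2.34% of tested genes. Members and the 9 gene lists (155 symbols, all present) were chosen with earlier results of these data known. The text names all members, the 3 genes of the related lists with the smallest p in 3 comparisons, and the 6 genes nearest to Ucp1 and to the mean of the members. Atp2a1, Ckmt2, Zic1, Lhx8, Ebf2, Cited1, Tmem26, Tbx1, Tnfrsf9, Slc25a4 and Gatm were chosen from the lists after their values were seen. The fit was tested on simulated data. Alternatives were another offset, no filter, median-of-ratios scaling, no trend, sample weights, a replicate block, libraries left out and subtraction of the adipocyte list.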

Additional observations from a re-analysis of the deposited data

How the results depend on the processing

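No member was called in any of the 7 comparisons under any alternative run. Of 478 recomputed differences of named genes 457 kept their sign and 21 turned. Many of the 457 could not turn. The runs without the filter and without the variance trend (34 differences each) leave every difference as it was. So does the block for diet and interaction, and leaving out both lymph node-rich libraries for genotype on the low-fat diet. The number kept is therefore no measure of stability. Adjusted p of Ucp1 ranged from 0.694 to 1 for genotype on the low-fat diet and from 0.505 to 1 for diet in wild type. TPM keeps no depth, so how far depth limits the low members is unknown.

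Counts of called genes over the whole table were small in each setting. In the order genotype averaged, genotype on the low-fat diet and genotype on the high-fat diet, they were 0, 0 and 2 as reported, 3, 5 and 1 with log2(TPM + 0.1), and 15, 2 and 18 without the filter. For diet averaged, diet in wild type, diet in null and interaction they were 0, 0, 1 and 0 as reported and 3, 5, 0 and 3 without the filter. With log2(TPM + 0.1) diet in null gave 0. Without the variance trend, genotype averaged gave 5, genotype on the low-fat diet 1, diet in wild type 2 and diet in null 0. Sample weights gave 2 for each of genotype averaged, genotype on the low-fat diet and diet in null. Without both lymph node-rich libraries, genotype on the high-fat diet and diet in null gave 0 and diet averaged 1. Subtracting the adipocyte list gave 1 for genotype averaged and 1 for the interaction. Leaving out 1 library gave 0 to 2 for genotype averaged, diet in wild type, diet in null and the interaction, 0 to 1 for genotype on the low-fat diet and diet averaged, and 0 to 3 for genotype on the high-fat diet.

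With the replicate number as a block, diet in null had 3 calls, Cidea was at 0.11 and Prdm16 at 0.018 for genotype on the low-fat diet, and the labels do not say that the numbers pair the libraries. The block also turned the members' median for genotype averaged from -0.36 to 0.13 (7 higher, 3 lower), moved that for genotype on the low-fat diet from -0.79 to -0.43 with Ucp1 at -0.64, and that for genotype on the high-fat diet from 0.06 to 0.44 (9 higher, 1 lower) with Ucp1 at 1.20. Deviations of same-numbered libraries from their group means correlated across genes at -0.35 to 0.41, with 11 of 13 pairs at or below 0.1. The highest correlation, 0.50, joined WT_HFD 2 and Null_HFD 3, the lymph node-rich libraries, which bear different numbers. Of the 10 libraries, 7 correlated best with one of their own number. The 2 libraries of a wild-type group deviate as mirror images, so these 7 are not independent and cannot decide whether the numbers pair the libraries. For genotype on the low-fat diet, Cox7a1 was at -0.023 with median-of-ratios scaling, and Cidea at 0.036 and Prdm16 at 0.18 with the adipocyte list subtracted. Without both lymph node-rich libraries, Ucp1 was at -0.66 for genotype on the high-fat diet and 0.54 for diet in null, and Slc27a2 at 0.16 for diet in wild type. Leaving out 1 library moved genotype on the low-fat diet from -0.91 to 0.11 for Cidea, -2.77 to 0.34 for Dio2, -0.28 to 0.45 for Cox7a1 and -2.36 to 0.75 for Slc27a2. For diet in wild type the ranges were -2.88 to 0.23 for Dio2 and -2.76 to 0.35 for Slc27a2. Ucp1 ranged from -3.42 to 0.54 for diet in null, -2.71 to 3.11 for genotype on the high-fat diet and -1.07 to 4.76 in the interaction, where the members' median ranged from -0.22 to 2.10. A wild-type group then holds 1 library, whose spread is assumed to be that of the other groups. The cause of these changes was not tested. With log2(TPM + 0.1), 3 of the 6 genes closest to Ucp1 were the same.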
